A study of Gallus gallus with 65 samples.

Results

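The SMAD, NF-kB, STAT, IRF and NFAT genes encode the transcription factors, and some of their regulators, that carry signals from cytokine and growth factor receptors or from calcium into the nucleus. They were chosen by name, as every gene probe whose name was REL or began with SMAD or its older form MADH, with STAT and a digit, or with IRF, NFKB, RELA, RELB, NFAT, SKI, TGFB or TIEG. The rule matched 42 of the 1507 gene probes on the array, of which 13 belonged to the TGF-beta branch, 10 to the NF-kB branch, 14 to the JAK-STAT and interferon branch and 5 to the calcineurin branch. No probe name began with SKI. Of the 42 members, 33 passed the filter on dim probes and were tested. The other 9 lay among the dimmest 15% of all probes and carry no test.

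Receptor-activated SMADs, NF-kB, STATs and the NFATs under calcineurin mainly wait in the cytoplasm and enter the nucleus after a signal. TGF-beta and BMP receptors phosphorylate SMADs, IkB proteins hold NF-kB back until they are degraded, Janus kinases phosphorylate STATs, and the phosphatase calcineurin releases NFAT from phosphorylation. Much of this control acts on the proteins, while each pathway also induces some of its own inhibitors and subunits as RNA, and RNA is what the arrays measured.

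The samples were sensory epithelia of the utricle, an inner ear organ that senses gravity and tilt, from White Leghorn chicks after hatching. Organs were cultured for 24 hr with 1 mM neomycin, an aminoglycoside antibiotic that kills hair cells, or in the same medium without it, and were collected at once (0 hr) or after another 24 or 48 hr without the drug. Each biological sample pooled 4 treated and 4 time-matched control epithelia, stripped from the stroma with thermolysin, and the RNA was amplified before labelling. There were 3 biological replicates per time point, on 25, 21 and 19 arrays for 0, 24 and 48 hr, and treated and control RNA shared each array in the dyes Cy3 and Cy5. The epithelium holds hair cells and supporting cells, so that in these bulk ratios fewer cells of a type and less RNA per cell cannot be told apart.

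The probes are oligonucleotides designed on human genes and hybridised to chicken RNA. Of the 42 names, 37 matched a chicken gene in RefSeq annotation of the GRCg7b assembly, and NFATC4, NFKBIL1, NFKBIL2, RELB and TGFB1I1 matched none. IRF3 and IRF7 matched the same chicken gene there, and so did STAT5A and STAT5B. Values below are log2 ratios of neomycin over time-matched control, so that 0 means no difference, in the direction that the file headers name. That direction rests on the headers, the sample titles and the deposited log2 ratios, whose sign follows the header dyes. The correlations between dye orientations below, near 0, do not bear it out.

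Signals were weak and the replicates varied. Over all spots the median ratio of foreground to background was 2.02 (Cy3) and 1.83 (Cy5). Ratios of arrays of the same replicate correlated across probes at a median r of 0.22 in the same dye orientation and of -0.062 in opposite orientations, and ratios of biological replicates of a time point at a median r of 0.024. On 3 arrays, 2 of 0 hr replicate 3 and 1 of 48 hr replicate 3, brightness across probes followed another pattern (r of 0.15 to 0.21 with the other arrays, against a median of 0.78), and no member was called with or without them. That pattern combines both dyes. In 0 hr replicate 2 with neomycin in Cy5, the raw Cy3 signals of arrays 3 and 4 correlated poorly with the arrays of that set. The r was 0.024 to 0.23, against 0.52 to 0.91 among the others. The members' values there include these arrays, among them those of MADH9 (-0.99), NFAT5 (-0.83) and NFATC4 (-0.65), and no alternative left out these arrays alone. Brightness, the geometric mean of both dyes, was 527 to 2302 among the 33 tested members. The limit of the filter was 499, with STAT5A (527) the dimmest member kept and NFATC1 (493) the brightest removed.

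No member passed an adjusted p of 0.05 in limma at 0, 24 or 48 hr, where 0% of the 1281 tested probes did, or in the mean over the 3 time points, where 0.39% did. At an unadjusted p under 0.05 the members came to 2 of 33 at 0 hr (6.06%, against 6.4% of all probes), 2 of 33 at 24 hr (6.06%, against 5.93%), 3 of 33 at 48 hr (9.09%, against 7.42%) and 3 of 33 in the mean (9.09%, against 12.2%). The members' shares were thus near those of all probes. The methods' t-test over single hybridisations, at an adjusted p under 0.05, also called 0 members at each time and in the mean. In the mean it called 42 of all probes. The study's own lists used another rule, a change past 1.2-fold and a p-value under 0.05, with no adjustment described. By that rule they hold MADH2, IRF2, STAT3 and TGFB1I1. The smallest adjusted p of a member in limma was 0.545 at 0 hr, 0.797 at 24 hr, 0.597 at 48 hr and 0.232 in the mean.

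The fitted ratios were small. They ran from -0.26 (MADH9) to 0.15 (REL) at 0 hr, from -0.23 (TGFB1I1) to 0.24 (STAT5A, whose probe was barely above background) at 24 hr and up to 0.25 (MADH2) at 48 hr, and all 33 lay within 1.2-fold at each time. All 33 members had a 95% interval within 1.5-fold at each of the 3 times. The farthest bound at 0 hr was that of STAT3, whose interval ran from -0.51 to 0.082. These widths rest on the normexp background correction, which draws dim ratios towards 0, and with plain background subtraction only 9, 10 and 6 members had an interval within 1.5-fold at 0, 24 and 48 hr. They bound the array ratios and not the change in RNA. The study proposes that hybridisation across species may compress the range, and reports that its arrays in general gave smaller changes than qPCR.

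**Figure D1:**
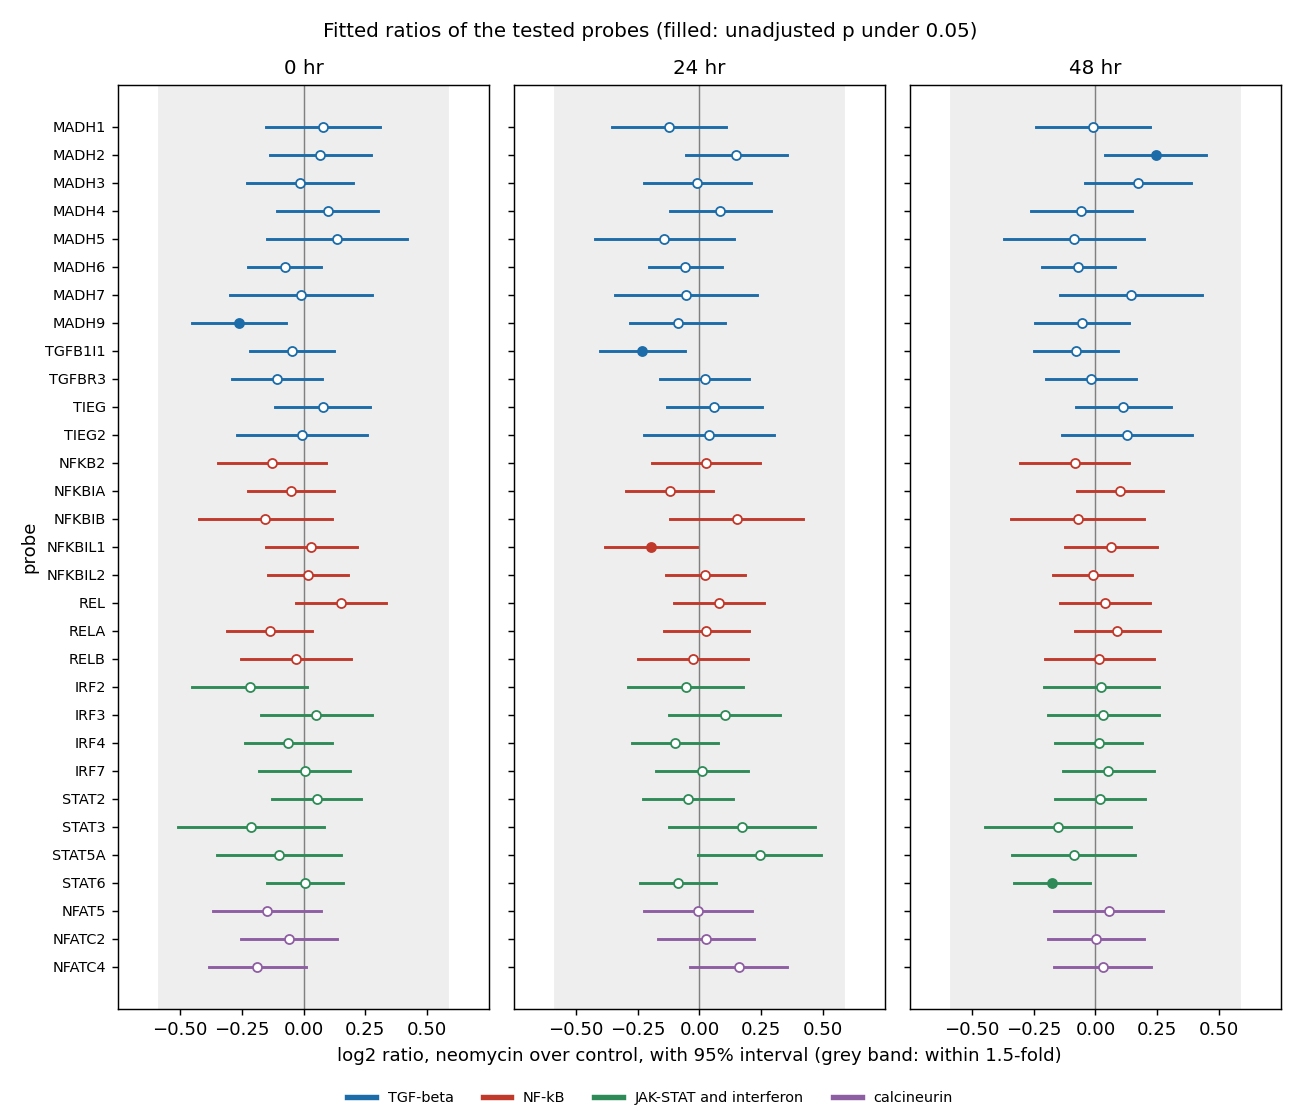
Fitted log2 ratio of neomycin over control (x axis) of 31 of the 33 tested probes (y axis) at 0, 24 and 48 hr, with the 95% interval of limma as a line, coloured by branch. Filled points had an unadjusted p under 0.05 (1, 2 and 2 of those drawn), none passed after adjustment, and all intervals lie inside the grey band of 1.5-fold.

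More members lay below control than above it at 0 hr. The fitted ratio was above 0 for 13 of 33 members at 0 hr (48.2% of all probes), 18 of 33 at 24 hr (52%) and 19 of 33 at 48 hr (52.8%). Over the 3 times in order the members' median ratio took the values -0.030, 0.021 and 0.016, beside -0.0052, 0.0041 and 0.0076 over all probes. Within the 0 hr replicates the members' median was -0.040, -0.027 and -0.037. In the 24 hr replicates it was -0.018, -0.0052 and -0.0088, and in the 48 hr replicates 0.032, -0.0040 and -0.069. All 3 medians at 0 hr and all 3 at 24 hr were below 0, and the lowest of all was that of 48 hr replicate 3. The 0 hr ratio was the lowest of the 3 for 18 of 33 members (33.9% of all probes), and 8 of 33 had the same sign at all 3 times (39.5%). The 0 hr median was -0.070 on arrays with neomycin in Cy3 and 0.013 with neomycin in Cy5.

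At 0 hr 9 of 33 members lay below 0 in every replicate (12.8% of all probes) and 2 lay above it (14.9%). At 24 hr 7 lay below (14%) and 4 above (15.3%), and at 48 hr 4 lay below (12.7%) and 1 above (15.8%). MADH9, TGFB1I1 and TGFBR3 of the TGF-beta branch, RELA, STAT3, STAT5A, NFAT5 and NFATC4 were among the 9 at 0 hr, and REL and STAT2 were above 0. Of these, MADH9, TGFB1I1, TGFBR3, STAT5A and STAT2 had mean ratios of opposite sign in the dye orientations at 0 hr.

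**Figure D2:**
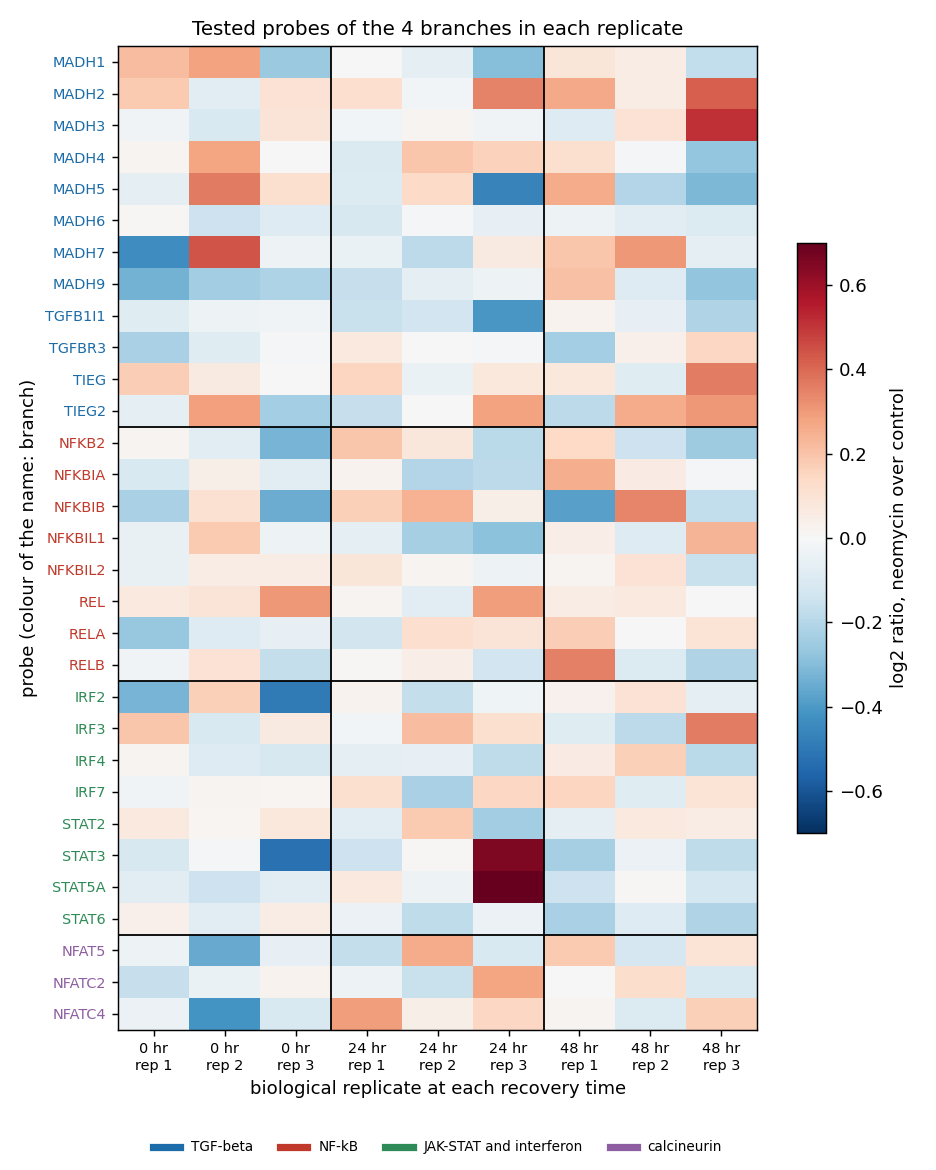
Log2 ratio of neomycin over control (colour, red above and blue below 0) of 31 of the 33 tested probes (rows, grouped by branch) in each of the 9 biological replicates (columns). Single strong cells stand out, such as STAT3 (0.65) and STAT5A (0.70) in 24 hr replicate 3, and at 0 hr 9 of all 33 probes lay below 0 and 2 above it in every replicate.

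TGF-beta branch. Of its 13 probes, 12 were tested, and the probe of the ligand TGFB1 was too dim. Their median ratios, in the order of the 3 times, were -0.0088, -0.032 and -0.014. At each time 1 probe of the 12 had an unadjusted p under 0.05, a different one each time. The shares of all probes were 6.4%, 5.93% and 7.42%.

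MADH2 (SMAD2), which relays TGF-beta and activin signals, had the highest ratio of any member at 48 hr. Its 3 replicates there were 0.26, 0.054 and 0.42, with a mean of 0.25 ± 0.18 (SD, n = 3). All lay above control, and the ratio was above 0 in both dye orientations, at 0.28 with neomycin in Cy3 and 0.21 with neomycin in Cy5. At 0 hr the replicates were 0.18, -0.081 and 0.10, and at 24 hr 0.12, -0.022 and 0.35. Replicate 2 was the lowest at each time, below 0 at 0 and 24 hr, and 7 of the 9 values were above 0. In limma the 48 hr ratio had an unadjusted p of 0.0228 and an adjusted p of 0.597, with a 95% interval from 0.040 to 0.45. The mean over the 3 times was 0.15 (SE 0.054, unadjusted p 0.0148, adjusted p 0.232 in limma).

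MADH3 (SMAD3), the other factor of the TGF-beta and activin arm, stood close to 0 at 0 and 24 hr, with replicates between -0.11 and 0.088. At 48 hr its replicates were -0.090, 0.099 and 0.51, a spread (SD 0.31) larger than the fitted ratio of 0.17.

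The 3 probes of the BMP arm gave no common direction at 0 hr. Later their fitted ratios were below 0 (52% and 52.8% of all probes lay above it at 24 and 48 hr). For MADH1, MADH5 and MADH9 they were -0.12, -0.14 and -0.088 at 24 hr and -0.011, -0.086 and -0.055 at 48 hr. None of these later ratios had an unadjusted p under 0.05 in limma. MADH9 (SMAD9), which acts with SMAD1 and SMAD5 after BMP receptors, had the lowest 0 hr ratio of all members, with replicates of -0.33, -0.24 and -0.21. Those replicates were all below control, with a mean of -0.26 ± 0.061 (SD, n = 3). Each averages both dye orientations, which differed widely in replicate 2, at 0.50 with neomycin in Cy3 and -0.99 in Cy5. Replicate 3 was at -0.056 and -0.37, and replicate 1 at -0.35 and -0.31. Over the 3 replicates the mean was 0.033 with neomycin in Cy3 and -0.56 with neomycin in Cy5. At 24 hr MADH9 was at -0.16, -0.066 and -0.036, and at 48 hr at 0.20, -0.091 and -0.28, so that 8 of 9 replicates lay below 0. Its mean over the 3 times was -0.14 (SE 0.051, unadjusted p 0.0208, adjusted p 0.289 in limma).

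MADH1 (SMAD1) had 0 hr replicates of 0.21, 0.28 and -0.26, and MADH5 (SMAD5) had -0.068, 0.36 and 0.11. Both fitted ratios were above 0 at 0 hr, at 0.079 and 0.14, and below it at 24 hr, at -0.12 and -0.14. MADH1 was below control in all 3 replicates at 24 hr (-0.0038, -0.064 and -0.30), and MADH5 was not (-0.095, 0.14 and -0.47). All 4 ratios were smaller than the SD between replicates, which was 0.16 to 0.31.

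MADH4 (SMAD4), the partner that receptor-activated SMADs share, was at 0.097, 0.084 and -0.057 at 0, 24 and 48 hr, with replicates on both sides of 0 each time. The inhibitory SMADs, which TGF-beta and BMP signals themselves induce, differed in spread. MADH6 (SMAD6) stayed between -0.14 and 0.0083 in all 9 replicates, with 8 below 0 and fitted ratios of -0.076, -0.058 and -0.069. MADH7 (SMAD7) ranged from -0.44 to 0.44 among the replicates of 0 hr alone, and its fitted ratios were -0.012, -0.056 and 0.14.

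TGFB1I1 encodes Hic-5, a LIM protein of focal adhesions named for its induction by TGF-beta. Its 24 hr replicates were -0.16, -0.13 and -0.41, the lowest fitted ratio of a member at that time (-0.23 ± 0.15, SD, n = 3). All 3 lay below control, and both orientations did too, at -0.34 with neomycin in Cy3 and -0.12 in Cy5. Without 24 hr replicate 3 the ratio was -0.14. At 0 hr the replicates were -0.084, -0.038 and -0.022, and at 48 hr 0.023, -0.055 and -0.21. The probe was thus below control in 8 of 9 replicates, and its mean over the 3 times was -0.12 (SE 0.045, unadjusted p 0.0212, adjusted p 0.289 in limma).

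The remaining probes of the branch stayed near control. TGFBR3, the co-receptor betaglycan, had fitted ratios of -0.11, 0.021 and -0.018. TIEG (KLF10), an early gene of TGF-beta signalling, was above 0 at each time, at 0.077, 0.060 and 0.11, but in 2 of 3 replicates only. TIEG2 (KLF11), a related repressor, was at -0.0060, 0.038 and 0.13, with SDs of 0.22 to 0.27.

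**Figure D3:**
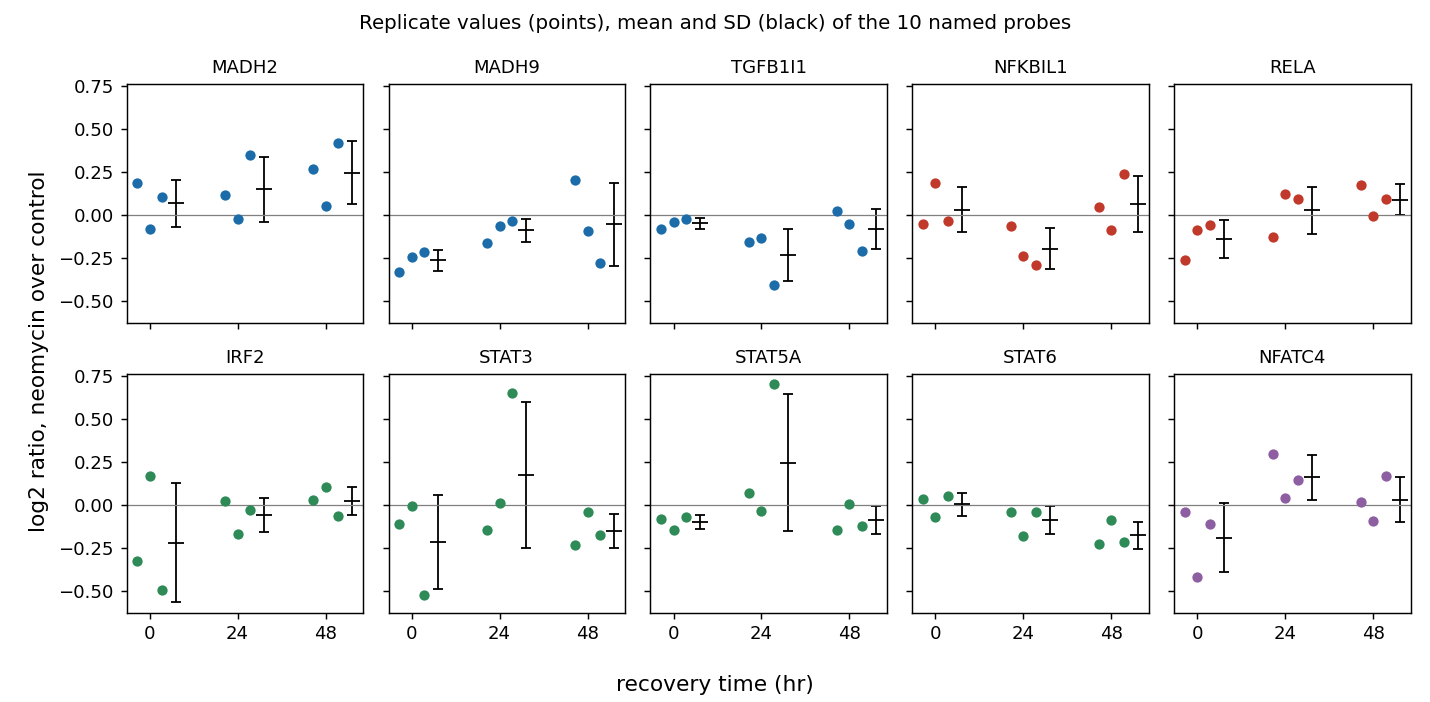
Log2 ratios of neomycin over control (y axis) at 0, 24 and 48 hr (x axis) for 10 probes named by p or listed for this time course, with 1 point per biological replicate and the mean with its SD in black. The 0 hr replicates of MADH9 lie at -0.33 to -0.21, although the dye orientations within replicate 2 were far apart (0.50 and -0.99). The 24 hr means of STAT3 and STAT5A rest on replicate 3.

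NF-kB branch. Of its 10 probes 8 were tested, NFKB1 and NFKBIE being too dim. Their median ratios, in the same order, were -0.040, 0.025 and 0.027. Only NFKBIL1 at 24 hr had an unadjusted p under 0.05 at any single time (6.4%, 5.93% and 7.42% of all probes at 0, 24 and 48 hr).

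Of the DNA-binding subunits, REL (c-Rel) had the highest ratio of a member at 0 hr. Its replicates there were 0.067, 0.088 and 0.30, all above control, and the fit gave 0.15 with an interval from -0.031 to 0.34. At 24 hr REL was at 0.021, -0.074 and 0.29, and at 48 hr it was at 0.050, 0.068 and -0.0022, so that 7 of 9 replicates were above 0.

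RELA (p65), the most widely expressed activating subunit, lay on the other side of control at 0 hr, at -0.26, -0.090 and -0.058. At 24 hr the replicates were -0.13, 0.12 and 0.093, and at 48 hr they were 0.17, -0.0040 and 0.095. The difference of 0.22 between 48 and 0 hr had an unadjusted p of 0.0664 and an adjusted p of 0.998 in limma. The orientations of RELA disagreed at 48 hr, at 0.25 with neomycin in Cy3 and -0.076 in Cy5. RELB and NFKB2, the pair of the non-canonical pathway, had fitted ratios of -0.030, -0.027 and 0.016 and of -0.13, 0.027 and -0.085, with replicates on both sides of 0 at each time.

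The IkB inhibitors, which hold NF-kB in the cytoplasm, gave small ratios in both directions. NFKBIA, which NF-kB itself induces, was at -0.049, -0.12 and 0.10 at 0, 24 and 48 hr. NFKBIB was at -0.15, 0.15 and -0.072, and its 3 replicates at 24 hr (0.17, 0.24 and 0.042) all lay above control, whereas those at 48 hr ran from -0.38 to 0.34.

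NFKBIL1 carries ankyrin repeats like IkB, but its product and that of NFKBIL2, a replication repair protein now called TONSL, are not established regulators of NF-kB. NFKBIL1 was at -0.063, -0.23 and -0.29 at 24 hr, all below control, with a fitted ratio of -0.20 (SE 0.085, unadjusted p 0.0406, adjusted p 0.797 in limma). The value came from the arrays with neomycin in Cy3 (-0.36), against -0.029 with neomycin in Cy5. The 0 hr replicates were -0.054, 0.19 and -0.035, and the 48 hr replicates were 0.045, -0.089 and 0.24. The difference of 0.26 between 48 and 24 hr had an unadjusted p of 0.0524 in limma. NFKBIL2 stayed between -0.16 and 0.10 in all 9 replicates.

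JAK-STAT and interferon branch. Of its 14 probes 10 were tested, 5 STAT and 5 IRF probes, and IRF1, IRF5, STAT4 and STAT5B were too dim. The median ratios of the branch were -0.029, 0.023 and 0.016 in the order of the times. At an unadjusted p under 0.05 there were 1 probe at 0 hr (6.4% of all probes), 0 at 24 hr (5.93%) and 2 at 48 hr (7.42%). STAT6 was among those at 48 hr, and each of these ratios was below 0.

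STAT2, which acts after type I interferon, had fitted ratios of 0.053, -0.046 and 0.019 at 0, 24 and 48 hr, with 0 hr replicates (0.070, 0.014 and 0.074) that all lay above control.

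STAT3, which signals for the interleukin 6 family, and STAT5A, which signals for prolactin and growth hormone, were marked by a single replicate. At 24 hr STAT3 was at -0.14, 0.011 and 0.65 and STAT5A at 0.070, -0.034 and 0.70. Replicate 3 was far above the others for both, most of all with neomycin in Cy5, where STAT3 reached 1.06 and STAT5A 1.10, against 0.25 and 0.29 with neomycin in Cy3. The STAT5A probe was barely above background, with a foreground of 1.34 times the background in Cy3 and 1.04 times in Cy5, so that its ratios rest on little signal. Without that replicate the 24 hr ratio was -0.067 in place of 0.17 for STAT3 and 0.018 in place of 0.24 for STAT5A. STAT3 was below control at 0 hr, at -0.11, -0.0062 and -0.52, and at 48 hr, at -0.23, -0.041 and -0.18, and STAT5A was at -0.080, -0.15 and -0.072 at 0 hr. The differences between 24 and 0 hr, of 0.39 for STAT3 and 0.34 for STAT5A, had unadjusted p of 0.067 and 0.0552 in limma. Without 24 hr replicate 3 they were 0.15 and 0.12. The STAT5B probe, whose name matched the same chicken gene as STAT5A, was too dim for a test. Its 24 hr replicates were -0.12, -0.020 and -0.057, with no rise in replicate 3.

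STAT6, the factor of interleukin 4 and 13 signalling, was at -0.23, -0.089 and -0.21 at 48 hr, all below control, with a mean of -0.18 ± 0.076 (SD, n = 3). The orientations disagreed, at 0.12 with neomycin in Cy3 and -0.47 with neomycin in Cy5. At 24 hr it was at -0.040, -0.18 and -0.041, also below control in every replicate, and at 0 hr at 0.034, -0.072 and 0.051. The 48 hr ratio had an unadjusted p of 0.028 and an adjusted p of 0.597 in limma.

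IRF2, an antagonist of IRF1 at interferon-responsive genes, was at -0.33, 0.17 and -0.49 at 0 hr, a fitted ratio of -0.22 with a spread (SD 0.34) larger than the ratio. It was close to control afterwards, at -0.057 and 0.024. The 0 hr ratio came from the arrays with neomycin in Cy5 (-0.47, against 0.036 in Cy3), and without 0 hr replicate 2 it was -0.41 with an adjusted p of 0.0977 in limma, beside 0.798 with all replicates. IRF3, IRF4 and IRF7, of which IRF3 and IRF7 induce type I interferon and IRF4 acts in lymphocytes, had fitted ratios between -0.099 and 0.10 at all times.

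Calcineurin branch. Of its 5 probes 3 were tested, and NFATC1 and NFATC3 were too dim. All 3 were below 0 at 0 hr (51.8% of all probes). The median there, -0.15, is the ratio of NFAT5, which calcineurin does not control. The later medians were 0.027 and 0.030.

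NFATC4, a calcineurin-controlled factor, had 0 hr replicates of -0.040, -0.42 and -0.11 and 24 hr replicates of 0.29, 0.038 and 0.15. Its name matched no chicken gene, and its foreground was 1.63 times (Cy3) and 1.36 times (Cy5) the background. All replicates were below control at 0 hr and all above it at 24 hr. In both orientations the sign was the same, at -0.19 and -0.18 at 0 hr and 0.18 and 0.14 at 24 hr. At 0 hr the replicates with neomycin in Cy5 were 0.15, -0.65 and -0.042. The sign of their mean thus rests on replicate 2, which includes the arrays of poor correlation named above. At 48 hr the replicates were 0.017, -0.093 and 0.17, and the orientations disagreed, at 0.25 with neomycin in Cy3 and -0.19 in Cy5. The difference of 0.35 between 24 and 0 hr had an unadjusted p of 0.0182 and an adjusted p of 0.997 in limma, and was 0.17 on the single day of image quantification that held both times (replicate 3). Without 0 hr replicate 2 the 0 hr ratio was -0.074.

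NFAT5, which answers osmotic stress and is not controlled by calcineurin, was at -0.036, -0.35 and -0.056 at 0 hr and near 0 later (-0.0046 and 0.053). Its 0 hr replicate 2 was at 0.13 with neomycin in Cy3 and -0.83 in Cy5, the set that includes the arrays of poor correlation. NFATC2, a factor of activated T cells, was at -0.060, 0.027 and 0.0036, with replicates on both sides of 0 each time.

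Between the time points, limma called 0 members and 0% of all probes. At an unadjusted p under 0.05 the difference of 24 against 0 hr gave 1 of 33 members (NFATC4; 2.58% of all probes), 48 against 24 hr gave 1 (3.59%) and 48 against 0 hr gave 2 (2.73%). The methods' t-test over hybridisations, at an adjusted p under 0.05, called no member in these differences, and 3 of all probes for 48 against 0 hr. All replicates of both times lay on opposite sides of 0 for 2 members, NFATC4 among them, between 0 and 24 hr (2.26% of all probes), for 1 between 24 and 48 hr (1.64%) and for no member between 0 and 48 hr (1.72%). The F test over all 3 times called 0 members (0% of all probes), with 1 of 33 at an unadjusted p under 0.05 (7.34% of all probes).

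The dye orientations set the scale against which these values stand. The mean ratio had the same sign with neomycin in Cy3 and in Cy5 for 11 of 33 members at 0 hr (45.2% of all probes), 17 at 24 hr (45.8%) and 8 at 48 hr (40.6%). The gap between the orientations was larger than the fitted ratio for 26, 22 and 29 of the 33 members at 0, 24 and 48 hr. The median gap was 0.20, 0.14 and 0.26, beside 0.16, 0.15 and 0.19 over all probes. The largest gap of a member was 0.79 (TGFBR3 at 48 hr). At 48 hr the ratio with neomycin in Cy3 was the higher one for 28 of 33 members, beside 56.8% of all probes. MADH2 and REL at 48 hr and MADH2, NFATC4 and TGFB1I1 at 24 hr were among those with the same sign in both, and MADH9 and IRF2 at 0 hr and STAT3 and STAT6 at 48 hr among those with opposite signs.

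**Figure D4:**
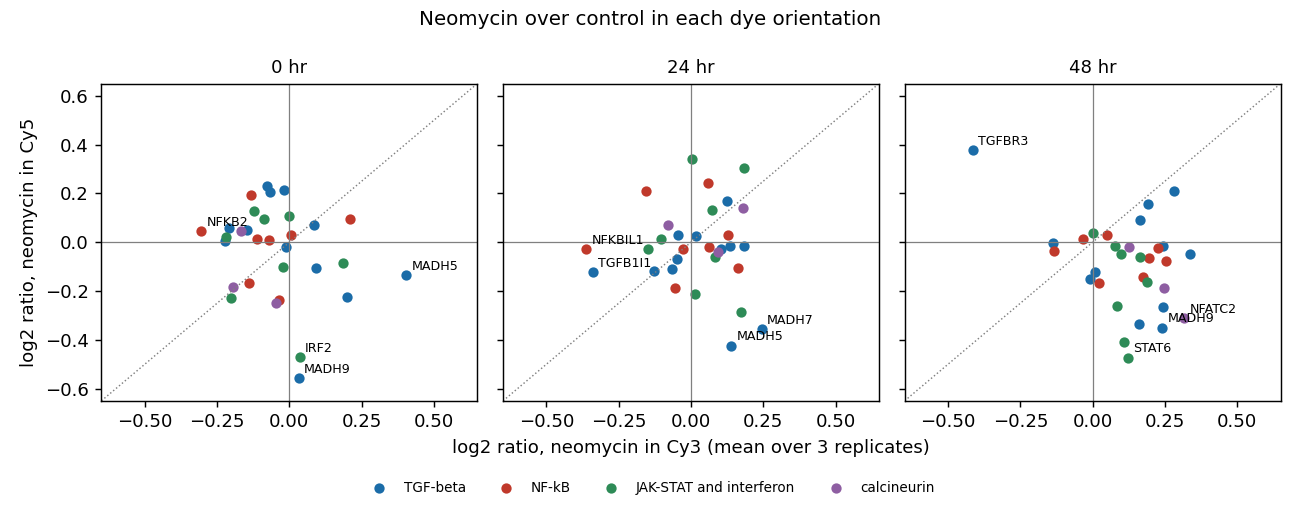
Mean log2 ratio of neomycin over control with neomycin in Cy3 (x axis) against that with neomycin in Cy5 (y axis), for 31 of the 33 tested probes at 0, 24 and 48 hr, coloured by branch, with the dotted line at equal values. Of all 33 probes 11, 17 and 8 agreed in sign between the orientations, and at 48 hr most points lie below the dotted line.

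The 9 dim members had time point means between -0.16 and 0.11, with single replicates between -0.44 (STAT4 at 0 hr) and 0.22 (IRF1 at 24 hr). Their foreground was 1.57 to 1.97 times the background in Cy3 and 1.02 to 1.55 times in Cy5. The filter used foreground alone, and the tested members overlapped with them in this measure, at 1.34 to 5.32 times in Cy3 and 1.04 to 4.56 times in Cy5. STAT5A, at the low end in both dyes, NFATC4 (1.63 and 1.36) and STAT6 (1.57 and 1.39) were tested although they lay that close to background. STAT5B was at 397 in brightness, IRF5 at 436 and NFKB1 at 469, and neither the p50 subunit (NFKB1) nor the ligand TGFB1 passed the filter. The foreground of NFKB1 was 1.94 times (Cy3) and 1.55 times (Cy5) the background, above that of STAT5A and NFATC4, which were tested.

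Among 43 other probes of these pathways, from a list of cofactors, targets and regulators, 34 were tested. At an unadjusted p under 0.05, 1 was higher and 1 lower at 0 hr (6.4% of all probes in either direction), 1 higher and 1 lower at 24 hr (5.93%), 1 higher and 2 lower at 48 hr (7.42%), and 2 higher and 2 lower in the mean (12.2%). These counts lay near the shares of all probes. The 1 that passed an adjusted p of 0.05 was HIVEP2, a zinc finger protein that binds kB-like motifs, in the mean over the 3 times (0.21, SE 0.041, adjusted p 0.0491 in limma). HIVEP2 was above control in 9 of 9 replicates and in both orientations at each time, and its call was lost in 18 of 25 alternatives, among them 8 of the 9 that left out a replicate, with adjusted p from 0.00457 to 0.478.

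TCF8 (ZEB1), a repressor that binds SMADs, was below control in 9 of 9 replicates, at -0.30 ± 0.20, -0.36 ± 0.30 and -0.31 ± 0.19 (SD, n = 3) at 0, 24 and 48 hr. Its mean of -0.32 had an adjusted p of 0.0745 in limma, which missed the threshold in 20 of 25 alternatives, among them 8 of the 9 that left out a replicate. Over the alternatives the adjusted p ran from 0.00115 to 0.347. Alternatives fitted on single arrays, and the methods' t-test, called TCF8 and HIVEP2, and count arrays of the same RNA as almost separate values. FOXO3A, a forkhead partner of SMADs, was at 0.29 at 24 hr (unadjusted p 0.0358 in limma) and FOXH1, the SMAD2 partner of activin responses, at -0.19 at 48 hr (unadjusted p 0.0472). NMI, an interferon-induced partner of STATs, was at -0.13 in the mean (unadjusted p 0.0401).

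HIVEP1, HIF1A and TITF1, which are also in the lists of the study for this time course, had no unadjusted p under 0.05, and ISGF3G (IRF9), which acts in the interferon response, was too dim. Those lists were drawn up on these samples and also hold ISGF3G, TCF8, MADH2, IRF2, STAT3 and TGFB1I1, which is therefore no independent evidence of their direction.

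Markers of cell types other than hair cells spread about as widely as the members. None of the tested markers of hair cells (2 of 4 on the array), supporting cells and the sensory patch (4 of 7), leukocytes (8 of 11) or mesenchyme (4 of 6) had an unadjusted p under 0.05 in limma at a single time. Fitted ratios ran from -0.041 to 0.045 for the hair cell markers ATOH1 and BARHL1, from -0.13 to 0.21 for supporting cells, from -0.21 to 0.18 for leukocytes and from -0.16 to 0.22 for mesenchyme. POU4F3 and GFI1 of hair cells were too dim. The mesenchyme marker MEOX2 had a difference of 0.38 between 48 and 24 hr (unadjusted p 0.0418, adjusted p 0.999 in limma). At that unadjusted limit lay 3.59% of all probes. The other tested mesenchyme markers did not share this rise, with differences of -0.24 (PMX1), -0.0038 (TBX18) and 0.037 (FOXC2).

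The medians of all 4 marker lists were lowest at 0 hr, as was that of the 33 members. The median over all tested probes was lowest at 0 hr too, at -0.0052, 0.0041 and 0.0076 in the order of the times. For the lists the medians were -0.020, 0.031 and -0.0082 for hair cells (2 probes), -0.0010, 0.055 and 0.027 for supporting cells (4), -0.076, -0.036 and 0.0098 for leukocytes (8) and -0.037, 0.043 and 0.060 for mesenchyme (4). Their part in the members' values was not tested.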

How the data were processed

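Per the file headers, the authors scanned each array in Cy3 and Cy5 and quantified each image with ImaGene, and the deposited intensity values are mean foreground and local background signals per spot, not normalized. The authors also deposited log2 ratios per spot, which equal the log2 ratio of the foreground signals, neomycin over control by the header dyes, to within 5.33e-15. They carry no background correction or centring (array medians from -2.03 to 1.81) and served only as an alternative. Foreground and background were corrected with normexp (offset 50) and each array was normalised by global loess in limma 3.58.1 under R 4.3.3. Spots of no gene (mismatch probes and names starting with CE or MT and a number) had weight 0 in the loess, and poor spots were left out. Ratios were turned to neomycin over control by the dye that the headers name, which the title digit matched on 65 of 65 arrays. Arrays of one replicate and their reversed dyes hold the same RNA and counted as 1 replicate: duplicate spots, arrays of one orientation and then both orientations were averaged, giving 9 replicate values. The dimmest 15% of gene probes, ranked by raw foreground, were left out.

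The limma model had 1 coefficient per time point, with two-sided p-values adjusted by Benjamini and Hochberg over 1281 probes. In the methods' t-test, single hybridisations entered as values, and its p-values were adjusted in the same way, which the study does not describe. Nothing in the files gives a depth for an array, and the number of replicates (3 per time point) limits the precision. The scripts were tested on simulated data.

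Members named with a p had an unadjusted p under 0.05, or were among the 3 smallest, in a comparison, or were listed by the study, and the other members are described by their role. The members, the pathway list and the markers were chosen with earlier results of these data known, so none of them is independent of the data. Alternatives covered background correction, normalisation, the filter on dim probes, each dye orientation, the handling of arrays, blocks for replicate number and day of image quantification, the deposited log2 ratios and leaving out each replicate. No sequences are shown. Some members' own results are not reported here, and they stay in the fit, the counts and the medians.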

Additional observations from a re-analysis of the deposited data

Results flagged for a closer look

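For NFATC4 all replicates at 0 hr lay below 0 and all replicates at 24 hr lay above it. Its ratio was 0.35 higher at 24 than at 0 hr. The probe name matched no chicken gene, and its foreground was 1.63 times (Cy3) and 1.36 times (Cy5) the background. The difference itself was tested in limma and did not pass, with an adjusted p of 0.997. Across all probes such a separation between these times was found for 2.26%, beside 2 of the 33 members.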

How the results depend on the processing

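No member passed an adjusted p of 0.05 in any of the 25 alternatives, in any of the 7 comparisons or in the F test, for which the methods' t-test gives no value. The smallest adjusted p was 0.0977, for IRF2 at 0 hr without 0 hr replicate 2. Of 678 pairs of a named member's value and an alternative, 22 had the sign turned.

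The members' median ratio moved by more than the spread between replicates in several settings. At 0 hr (-0.030) it was -0.0088 with no background correction, -0.054 with plain subtraction, -0.059 with median centring, -0.066 with scale normalisation, -0.048 with no filter, -0.0088 with probes of brightness 800 or more, -0.070 with neomycin in Cy3 only, 0.013 with neomycin in Cy5 only and -0.020 with the deposited log2 ratios. At 24 hr (0.021) it was 0.0018 with no background correction, -0.012 with plain subtraction, 0.0063 with loess within subgrids, -0.0071 with median centring, -0.056 with brightness 800 or more, 0.059 and -0.018 with neomycin in Cy3 and in Cy5, 0.011 with all arrays and a random block for the replicate or for the day, and -0.018 with the deposited log2 ratios. At 48 hr (0.016) it was -0.059 with plain subtraction, and 0.16 and -0.061 with neomycin in Cy3 and in Cy5. Leaving out 1 replicate at a time gave -0.046 (without 0 hr replicate 2) to -0.019 (without 0 hr replicate 1) at 0 hr, -0.0034 (without 24 hr replicate 1) to 0.021 at 24 hr, and -0.015 to 0.028 at 48 hr. The 24 hr median was 0.0030 without replicate 2 and 0.00042 without replicate 3.

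With neomycin in Cy3 only, the sign turned for MADH9 at 0 hr (0.033) and in the mean (0.069), STAT6 at 48 hr (0.12), MADH2 at 0 hr (-0.067), IRF2 at 0 hr (0.036), at 24 hr (0.17) and in the mean (0.10), and STAT3 at 48 hr (0.11). With neomycin in Cy5 only, it turned for NFKBIL1 for 48 against 24 hr (-0.037), IRF2 at 48 hr (-0.049) and TGFB1I1 at 0 hr (0.049). Plain subtraction turned IRF2 at 48 hr (-0.20) and TGFB1I1 at 0 hr (0.18), and no background correction turned IRF2 at 24 hr (0.0056) and 48 hr (-0.075) and TGFB1I1 at 48 hr (0.031). IRF2 at 48 hr also turned with median centring (-0.0039), scale normalisation (-0.063), the deposited log2 ratios (-0.17) and without 48 hr replicate 2 (-0.015). The deposited log2 ratios turned TGFB1I1 at 48 hr (0.0097), and leaving out 24 hr replicate 3 turned STAT3 at 24 hr (-0.067). Over the left-out replicates IRF2 at 48 hr ran from -0.015 to 0.067 and STAT3 at 24 hr from -0.067 to 0.33. The causes were not tested.

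Same-numbered replicates of different time points did not deviate together (r from -0.11 to 0.19, over 0.1 in 2 of 9 pairs), so the numbers were not taken to pair the samples. With the replicate number as a block 0 members were called, the medians were -0.030, 0.021 and 0.016, and the probes called in the mean came to 16, beside 5 without the block. That count was 25 without 0 hr replicate 2. It was 55 and 60 with all arrays and a random block for the replicate and for the day, and 42 in the methods' t-test. The correlations within these blocks were 0.0015 and -0.0093. The block fits, like the t-test, thus took arrays of the same RNA as almost separate values, and their counts are not counts over replicates. Signals close to background limit all these values.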
